A study of Mus musculus with 36 samples.

Results

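P-body-seq was examined in mouse embryonic fibroblasts (MEFs) at day 3 of reprogramming in which Nudt21 had been knocked down (KD). The members were the 4 libraries labelled MEF-reprog-d3-NudT21, 2 from sorted P-bodies and 2 from the cytoplasm, out of 36 mouse samples in the series. Of 25239 genes in the count table, 15995 held at least 10 reads summed over these 4 libraries and were tested. A total of 133 genes sat exactly at 10 reads and 138 genes just missed the limit with 9 reads. The 4 matching day 3 control libraries (MEF-reprog-d3-ctrl) and 4 libraries of MEFs that were not reprogrammed (MEF-ctrl), each with 2 P-body and 2 cytoplasm samples, served for comparison.

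By the study's methods, the day 3 MEFs came from mid-gestation mouse embryos and carried a doxycycline-inducible cassette for the reprogramming factors OCT4, KLF4, SOX2 and MYC in the 3′ UTR of Col1a1, the doxycycline-responsive transactivator M2-rtTA inserted at Rosa26 and an EGFP reporter under Pou5f1 regulatory elements. Control and KD cells shared the cassette, the doxycycline and ascorbic acid treatment and a GFP-LSM14A construct that marks P-bodies. In the KD, Nudt21 was silenced with a short hairpin RNA from a lentiviral vector. The lysate was cleared of nuclei by a slow spin and then spun again at a higher speed. The resuspended pellet of that second spin was the cytoplasmic fraction, from which P-bodies were sorted as fluorescent particles. The cytoplasm libraries come from this fraction before sorting, so material left in the supernatant is in neither fraction. A P-body value is therefore a share of the sorted RNA compared with a share of the RNA it was sorted from, and the amount of RNA in either fraction was not measured. The study describes the replicates of its sequencing assays as biological, but the labels do not say whether those of a group came from separate embryos or cultures, and p-values measure the spread between these samples.

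P-bodies are cytoplasmic condensates without a membrane that hold untranslated mRNA together with decapping factors, the helicase DDX6, LSM14 proteins and Argonaute proteins loaded with microRNAs. NUDT21 is the smaller subunit of cleavage factor Im (CFIm), which binds UGUA motifs in nascent transcripts and favours cleavage at the distal polyadenylation site. When it is lost, many transcripts are cut at a proximal site and lose part of the 3′ UTR and the microRNA target sites in it. Reads counted over all exons of a gene cannot tell these transcript ends apart, so the values below are for genes and not for 3′ UTR isoforms.

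The sequence elements that link these processes are shown here for genes described later. The mature let-7a-5p microRNA, with its seed in capitals, and the seed match nearest the stop codon in the 3′ UTR of 4 let-7 target genes that differed between the fractions, with the match in capitals, read as follows.
let-7a-5p: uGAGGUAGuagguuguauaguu
Trim71: ttgcctaagtcCTACCTCagcttaaattt
Igf1r: caaacatttatCTACCTCactcttgtttt
Fas: aaaCTACCTCagttccagcca
Zfp322a: ccaacgcaagtCTACCTCaggtaagtagt
The windows lay at chr9:114512462-114512490 (minus strand), chr7:68229114-68229142 (plus strand), chr19:34327325-34327345 (plus strand) and chr13:23353243-23353271 (minus strand), in the mm10 build. Below are the UGUA motifs, written TGTA in DNA letters and in capitals, closest to the annotated transcript end of 4 genes known as targets of CFIm-dependent 3′ UTR shortening. They are shown because this is the motif that CFIm recognises.
Ccnd1: caggttggcttttTGTAtttctggttgaca
Timp2: gcgcctgatgctcTGTAtcagtctctactt
Dicer1: tctttttaataatTGTAgtcaataaagtta
Vma21: taaaaaaagtgtcTGTAatgcta
These windows lay at chr7:144930025-144930054 (minus), chr11:118301116-118301145 (minus), chr12:104687753-104687782 (minus) and chrX:71824684-71824706 (plus). The motifs ended 107, 60, 24 and 6 bases before the end of the longest coding transcript, and the 3′ UTRs held 16, 10, 23 and 32 TGTA in all. The sequences are those of the GENCODE M21 transcripts on the same build.

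The KD libraries held 21149080 to 30752688 reads assigned to genes, and the 10 most abundant genes took 4.38% to 4.70% of them. Nudt21 (chr8:94015496-94037031) stood at 6.03 and 5.54 CPM (reads per 1000000 of the scaled library total, here over the 8 day 3 libraries) in KD P-bodies, against 5.68 and 5.01 CPM in KD cytoplasm. In control cells it measured 106 and 116 CPM in the P-body pair against 88.8 and 92.1 CPM in the cytoplasm pair, so that every KD library lay far below every control library. In the cytoplasm the log2 fold change of KD against control was −4.07 ± 0.14 (SE; edgeR quasi-likelihood test, adjusted p = 3.12e-07). Between the fractions of the KD cells, Nudt21 did not differ beyond the spread, with a log2 fold change of 0.10 ± 0.20.

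The question addressed first was which transcripts were P-body-enriched in the KD cells. Of 15995 genes, 3501 (21.9%) differed between P-bodies and cytoplasm at an edgeR adjusted p under 0.05, of which 1446 (9.04%) were P-body-enriched and 2055 (12.8%) were P-body-depleted. The changes were small on the enriched side, with a median log2 fold change of 0.45 and only 31 genes past 2-fold. They were larger on the depleted side, with a median of −0.64 and 407 genes past 2-fold, 30 of them past 4-fold. These counts include genes under 10 CPM. At 10 CPM or more the largest log2 fold changes were 1.15 (Gm10778) and −2.43 (Gna12), so every larger change came from a gene with fewer reads. In all 3501 genes the values of the P-body and cytoplasm libraries did not overlap, which was also the case in 62.2% of all tested genes. The P-body replicates differed more than the cytoplasm replicates, with an SD of the log2 difference of 0.23 against 0.15 at 10 CPM or more. When a library is left out, the spread is measured in the other fraction alone. Counts of called genes without a cytoplasm or P-body library, here and below, therefore also reflect which pair remained. P-body replicate 1 lay farther from the cytoplasm than replicate 2 in 2567 of 3133 called genes with at least 10 CPM (81.9%).

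**Figure D1:**
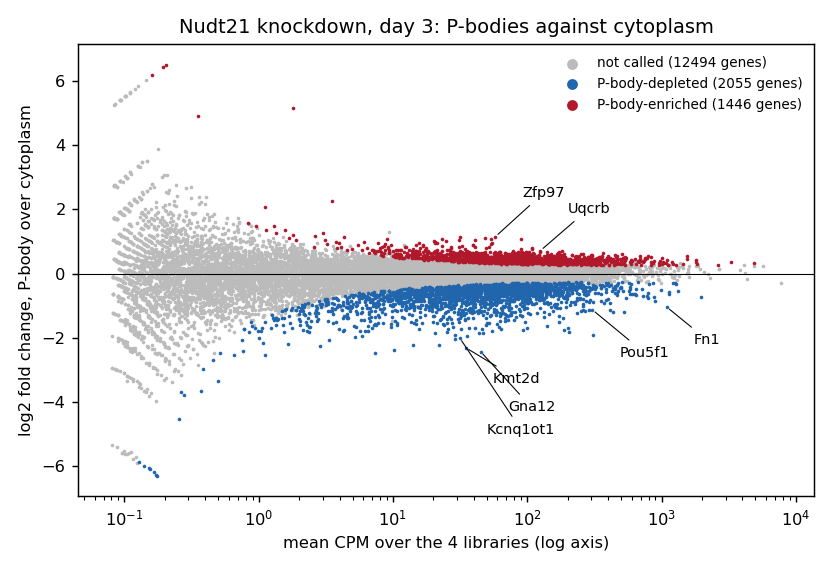
Log2 fold change of P-bodies over cytoplasm (vertical axis) against the mean CPM over the 4 Nudt21 KD libraries (horizontal log axis), with 1 point per tested gene. The median was 0.45 for the 1446 enriched genes and −0.64 for the 2055 depleted genes. The extremes were 6.51 and −6.30, both in genes under 10 CPM. Labelled depleted genes include Gna12, Kmt2d and Kcnq1ot1.

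Transcripts of zinc finger genes headed the enriched side. Among the 12 genes with the largest enrichment at 10 CPM or more, 6 carried a numbered zinc finger (Zfp) name. Zfp97 measured 89.5 and 69.9 CPM in the P-body pair against 40.5 and 31.3 CPM in the cytoplasm pair. Both P-body libraries were above both cytoplasm libraries, and the difference was 2.21-fold (log2 1.15 ± 0.15, edgeR adjusted p = 0.000862). Zfp958 stood at 136 and 108 CPM against 59.99 and 55.9 CPM (log2 1.07 ± 0.12). The other genes of the 12 were 1.95-fold to 2.22-fold higher in P-bodies.

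Of these 12 genes, 8 lay in 2 clusters. Gm51425, Zfp960, Zfp97 and Gm38396 lay together at chr17:17005116-17206397, and Gm10778, Gm3055, Zfp781 and BC024063 at chr10:81649059-82111216. Positions of Gm51425 and Gm38396 are from RefSeq and the others from GENCODE, and LOC102640673 was matched in neither. Such clusters can hold near-identical genes, and the counts of 9 of the 12 contained fractions of reads in all 4 libraries. Gm3055 and Zfp781 had near-identical values in every library, 29.6 and 24.5 CPM in P-bodies, so that these genes cannot be counted as independent.

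Over the whole family, 96 of 374 tested numbered zinc finger genes were enriched (25.7%, against 9.04% of all genes) and 44 were depleted (11.8%, against 12.8%), with a median log2 fold change of 0.18. Without cytoplasm replicate 1 or 2 the enriched count was 48 or 23 and the depleted count 23 or 16. Mouse zinc finger genes mostly encode DNA-binding repressors, many of which silence transposable elements. On chromosome 17, 26 of 45 members were enriched and 2 depleted, on chromosome 13 the counts were 17 and 0 of 35, and on chromosome 7 they were 13 and 9 of 91. Among the depleted members was Zfp609, with 10.3 and 12.3 CPM in the P-body pair against 27.3 and 29.4 CPM in the cytoplasm pair (log2 −1.32 ± 0.15). Base composition separated the members: the median coding GC content was 40.9% for 84 enriched members with at least 10 CPM, 49.1% for 126 members that were not called and 56.0% for 36 depleted members. Across these 246 members, which share libraries and in part reads, the Spearman correlation of the log2 fold change was −0.76 with coding GC content and −0.27 with coding length.

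**Figure D2:**
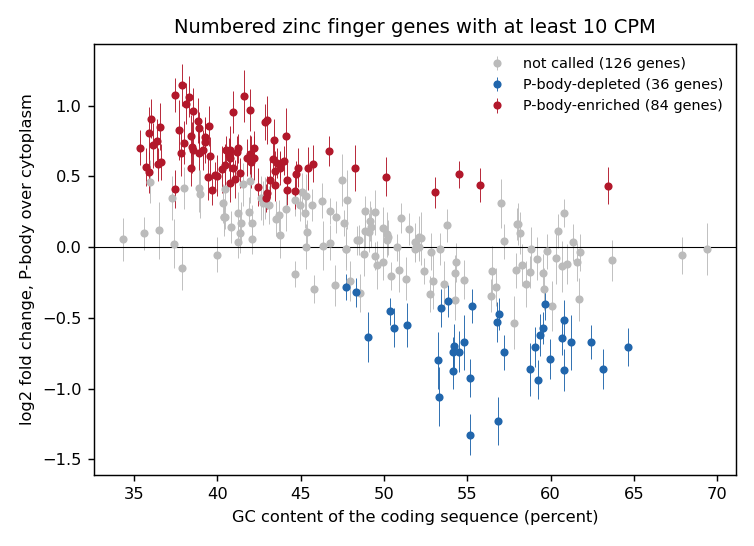
Log2 fold change of P-bodies over cytoplasm (vertical axis, bars are SE) against the GC content of the coding sequence in percent (horizontal axis) for 246 numbered zinc finger genes with at least 10 CPM. Enriched members gather at low GC content, with a median of 40.9%, and depleted members at high GC content, with a median of 56.0%.

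Subunits of the respiratory chain, the ribosomes and the proteasome were also enriched. Of 79 nuclear-encoded subunits of the respiratory chain, which drives most ATP synthesis, 58 were enriched (73.4%, against 9.04% of all genes) and 0 depleted. Uqcrb, a subunit of complex III, measured 174 and 136 CPM in the P-body pair against 95.2 and 94.6 CPM in the cytoplasm pair (1.64-fold, log2 0.71 ± 0.12, edgeR adjusted p = 0.00289). Among cytosolic ribosomal protein genes, 54 of 80 were enriched (67.5%) and 0 depleted, and among mitochondrial ones 44 of 77 (57.1%) and 0. Rpl21, of the large cytosolic subunit, stood at 233 and 187 CPM against 127 and 138 CPM (1.59-fold), and Mrpl47, of the large mitochondrial subunit, at 41.2 and 37.5 CPM against 21.2 and 23.7 CPM (1.76-fold). In both genes the P-body libraries lay above the cytoplasm libraries.

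The proteasome, which degrades ubiquitin-tagged proteins, showed the same direction, with 26 of 38 subunits enriched (68.4%) and 0 depleted. Psmc6, an ATPase subunit, measured 251 and 208 CPM in the P-body pair against 152 and 147 CPM in the cytoplasm pair (1.53-fold). The median log2 fold changes of these 4 lists were 0.37 to 0.45, and in the day 3 control the same members had medians of 0.39 to 0.64 and in MEFs of 0.88 to 1.38. The list medians stayed at 0.30 or higher when any library was left out. Counts of members called in those fits varied and also reflect which pair of replicates remained to measure the spread. Not all metabolic genes were on this side, since 1 of 18 glycolysis genes was enriched and 1 depleted. Each is 5.56%, against 9.04% and 12.8% of all genes.

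Noncoding host genes of small nucleolar RNAs, whose spliced transcripts carry 5′ terminal oligopyrimidine tracts in several cases, had 4 of 20 members enriched and 0 depleted. The enriched share was 20%, against 9.04% of all genes. Gas5 measured 447 and 357 CPM in the P-body pair against 271 and 295 CPM in the cytoplasm pair (log2 0.51 ± 0.11). Zfas1 (log2 0.55 ± 0.12), Snhg6 (0.55 ± 0.15) and Snhg15 were the others called, and the count was 0 or 2 without cytoplasm replicate 1 or 2.

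Of 59 translation initiation and elongation factors, 14 were enriched (23.7%, against 9.04% of all genes) and 3 depleted (5.08%, against 12.8%), and the enriched count was 1 without either cytoplasm library. Eif3e, a subunit of the eIF3 complex, measured 496 and 400 CPM in the P-body pair against 290 and 280 CPM in the cytoplasm pair (log2 0.65 ± 0.11). Among the depleted genes, Eif4g3, a scaffold of the cap-binding complex, stood at 45.8 and 52.8 CPM against 110 and 115 CPM (log2 −1.19 ± 0.11), Eif4g1, its paralog, had a log2 fold change of −0.76 ± 0.09, and Eif2ak4, a kinase that phosphorylates eIF2, one of −0.47 ± 0.10. Of 43 RNA polymerase II and Mediator subunits, 14 were enriched (32.6%) and 9 depleted (20.9%), with 0 or 3 enriched and 4 depleted without cytoplasm replicate 1 or 2. Polr2a, the large catalytic subunit of polymerase II, was depleted, at 30.2 and 30.3 CPM against 78.5 and 73.5 CPM (log2 −1.33 ± 0.11), while Polr2l, a small subunit, was enriched (log2 0.59 ± 0.14).

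Among genes with at least 10 CPM, the most depleted were Gna12, Foxd1 and Kmt2d. Gna12, a G protein alpha subunit (chr5:140758408-140830431), measured 10.2 and 17.9 CPM in the P-body pair against 85.1 and 66.4 CPM in the cytoplasm pair. It was 5.39-fold lower in P-bodies (log2 −2.43 ± 0.22, edgeR adjusted p = 0.000155). Foxd1, a forkhead transcription factor, stood at 2.35 and 4.16 CPM against 15.4 and 18.5 CPM (log2 −2.37 ± 0.24). Kmt2d, which methylates histone H3 lysine 4 at enhancers (chr15:98831669-98871204), stood at 11.2 and 12.1 CPM against 53.4 and 62.5 CPM, with closely matching replicates (log2 −2.31 ± 0.13). The next genes were Mtss2, Cebpb, Zdhhc18, Kcnq1ot1, Atxn2, Wiz, Ybx3, Axin1 and Neat1, at −2.23 to −1.86. Of these, Cebpb, a transcription factor of the CCAAT-binding family, had unlike P-body replicates, at 1.67 and 13.8 CPM against 32.0 and 40.4 CPM, and its log2 fold change of −2.22 ± 0.57 was −1.39 without P-body replicate 1 and −4.42 without replicate 2. The Cebpb call was lost under DESeq2 (adjusted p = 0.177) and without cytoplasm replicate 2 (edgeR adjusted p = 0.0581), and held under the other alternatives with edgeR adjusted p of at most 0.0257.

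Chromatin regulators were more often depleted than all genes (12.8%), at 48.3% of histone lysine methyltransferases and demethylases and 44.4% of remodelling genes. Of 60 histone lysine methyltransferases and demethylases, 29 were depleted and 0 enriched (median log2 −0.42), with 12 or 10 depleted without cytoplasm replicate 1 or 2. Kmt2a measured 33.0 and 38.7 CPM in the P-body pair against 79.8 and 85.0 CPM in the cytoplasm pair (log2 −1.20 ± 0.11), and Kmt2b had a log2 fold change of −1.18 ± 0.14. Of 36 chromatin remodelling ATPases and BAF subunits, 16 were depleted and 1 enriched. Arid1a, a DNA-binding subunit of the BAF complex, stood at 29.8 and 31.02 CPM against 72.7 and 68.7 CPM, with no overlap between the fractions (log2 −1.22 ± 0.11). Tet2, which oxidises methylated cytosine, was also depleted, at 47.7 and 46.4 CPM against 64.0 and 66.9 CPM (log2 −0.48 ± 0.10, edgeR adjusted p = 0.00921).

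Transcripts of the extracellular matrix, the main product of fibroblasts, were depleted as well. Among laminins, integrins and matrix glycoproteins 26 of 41 were depleted (63.4%) and 0 enriched, and among collagens 18 of 40 (45%) and 0. Over all genes 12.8% were depleted. Without cytoplasm replicate 1 or 2 the depleted counts were 13 or 14 and 9 or 7. Hspg2, encoding perlecan of basement membranes, measured 102 and 85.1 CPM in P-bodies, below the 306 CPM of each cytoplasm library (3.27-fold lower, log2 −1.71 ± 0.11, edgeR adjusted p = 2.9e-05). Fn1, encoding fibronectin, stood at 695 and 732 CPM against 1469 and 1470 CPM (log2 −1.04 ± 0.08). Itgb5, an integrin chain, had unlike P-body replicates, at 115 and 248 CPM, both below 412 and 381 CPM in the cytoplasm, and its log2 fold change of −1.12 ± 0.25 was −0.68 without P-body replicate 1 and −1.77 without replicate 2. The Itgb5 call was lost under DESeq2 (adjusted p = 0.0936), while its edgeR adjusted p was at most 0.0245 under the other alternatives. Col1a1 stood at 104 and 124 CPM against 229 and 247 CPM (log2 −1.06 ± 0.11). The cassette lies in its 3′ UTR, and whether any cassette reads fall on Col1a1 exons was not examined.

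The labelled cell type was checked against 10 fibroblast markers. All were tested, 6 were depleted (60%, against 12.8% of all genes) and 0 enriched. Their summed level was 3000 and 3206 CPM in P-bodies against 4303 and 4496 CPM in the cytoplasm. Vim and Prrx1 did not differ beyond the spread, with log2 fold changes of −0.01 and 0.05. For the levels of the marker lists that follow, bulk libraries cannot tell fewer cells of a type from less RNA per cell. Erythroid and lung epithelial markers summed to at most 1.01 CPM in any library, skeletal muscle markers to at most 9.03 CPM and pluripotent cell markers to at most 8.09 CPM. Macrophage markers summed to 102 to 113 CPM, endothelial markers to 157 to 181 CPM and neural markers to 43.3 to 51.3 CPM, with 0 members of these 3 lists called. Single genes carried these sums: Cd68 among 3 tested macrophage markers, Tek among 6 endothelial markers, and Tubb3 and Map2 among 4 tested neural markers, with every other tested member of the 3 lists under 1 CPM on average.

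The reprogramming factors themselves were depleted from P-bodies. Pou5f1, encoding OCT4, measured 163 and 220 CPM in the P-body pair against 399 and 439 CPM in the cytoplasm pair (log2 −1.13 ± 0.13, edgeR adjusted p = 0.000506). Sox2 stood at 130 and 178 CPM against 304 and 387 CPM (log2 −1.17 ± 0.15). Klf4 had 211 and 316 CPM against 550 and 666 CPM (log2 −1.20 ± 0.16), and Myc 243 and 335 CPM against 495 and 587 CPM (log2 −0.90 ± 0.14). In each of the 4 genes both P-body libraries lay below both cytoplasm libraries, and P-body replicate 1 was the lower. Reads from the inducible cassette and from the endogenous genes fall on the same coding exons and cannot be told apart. The study describes the cassette as polycistronic, so 1 cassette mRNA carries all 4 factors. The 4 genes therefore cannot be counted as independent results.

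Of 19 tested reprogramming and pluripotency genes, 7 were depleted and 1 was enriched, with 5 or 4 depleted without cytoplasm replicate 1 or 2. The 7 (36.8%, against 12.8% of all genes) include the 4 cassette factors. The enriched gene was Dppa5a, a marker of pluripotent cells, with 3.40 and 3.63 CPM in P-bodies and 0.161 and 0 CPM in the cytoplasm. The cytoplasm values rest on 5.0 reads in 1 of the 2 libraries. With 99.8 and 108 reads in P-bodies, Dppa5a passed the read minimum through the P-bodies alone. Nanog, a core pluripotency factor, had at most 0.306 CPM in any library and did not pass the test. Outside the list, Polk, encoding the DNA repair polymerase kappa, missed the threshold with 102 and 103 CPM in P-bodies against 87.7 and 82.8 CPM (log2 0.27 ± 0.09, edgeR adjusted p = 0.065).

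Transcripts for P-body components were themselves P-body-depleted more often than enriched, with 9 and 2 of 19 called, or 4 and 0 without either cytoplasm library. Shares of 47.4% depleted and 10.5% enriched stood against 12.8% and 9.04% of all genes. Tnrc6c, a partner of Argonaute, measured 10.04 and 13.1 CPM in the P-body pair against 25.9 and 24.8 CPM in the cytoplasm pair (log2 −1.14 ± 0.16). Edc4, a decapping scaffold, stood at 121 and 145 CPM against 180 and 202 CPM (log2 −0.53 ± 0.11). The enriched members were Dcp2, the decapping enzyme (log2 0.37 ± 0.10), and Lsm1, of the ring that binds deadenylated 3′ ends (0.44 ± 0.12). Ddx6 and Lsm14a did not pass, at −0.08 ± 0.11 and −0.15 ± 0.09. The Lsm14a reads can include the GFP-LSM14A construct that all these cells carried, if its sequence is close to the mouse gene.

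Deadenylation and microRNA factors were also depleted more often than enriched. Their depleted shares were 29.4% and 42.9%, against 12.8% of all genes. Of 17 CCR4-NOT and PAN2-PAN3 genes 5 were depleted and 0 enriched, led by Cnot3 (log2 −0.70 ± 0.12), and without cytoplasm replicate 1 or 2 the count was 2 or 0. Of 14 microRNA processing and Argonaute genes 6 were depleted and 0 enriched, with 2 or 1 depleted without cytoplasm replicate 1 or 2. Ago2, the Argonaute protein with slicer activity, measured 122 and 160 CPM in the P-body pair against 193 and 209 CPM in the cytoplasm pair (log2 −0.51 ± 0.12, edgeR adjusted p = 0.0157), and Drosha, which starts microRNA maturation in the nucleus, had a log2 fold change of −0.52 ± 0.10. Nonsense-mediated decay factors had 5 of 17 depleted and 2 enriched, or 3 and 0 without either cytoplasm library. The shares of these decay factors were 29.4% depleted and 11.8% enriched, the latter close to the 9.04% of all genes. Upf1, their central helicase, was depleted (log2 −0.90 ± 0.13), while Magoh and Rbm8a of the exon junction complex were the enriched members.

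**Figure D3:**
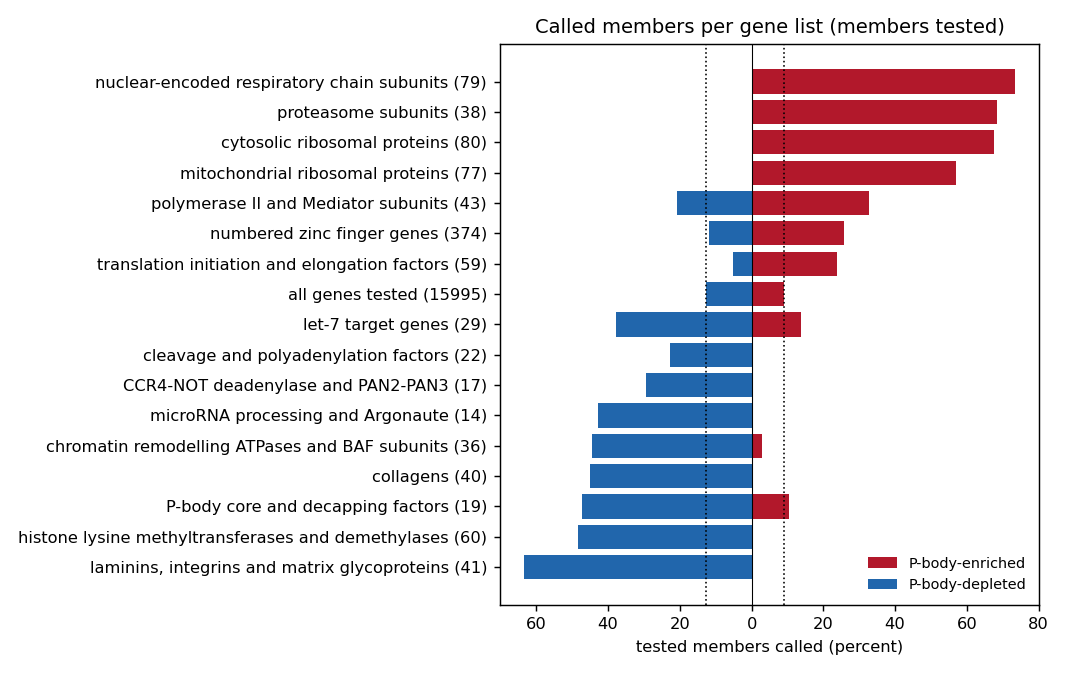
Percent of the tested members of each gene list that were P-body-enriched (right of 0) or P-body-depleted (left of 0) in Nudt21 KD cells, with the number tested in parentheses and dotted lines at the shares over all 15995 genes (9.04% and 12.8%). The respiratory chain, proteasome and ribosomal protein lists extend to the right alone, while matrix, collagen and histone methylation lists extend to the left alone.

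Partners of NUDT21 in 3′ end formation were examined next. Of 22 cleavage and polyadenylation factors, 5 were depleted (2 without either cytoplasm library) and 0 enriched: Sympk, the symplekin scaffold (log2 −0.64 ± 0.09), Rbbp6 (−0.63 ± 0.09), Cpsf7 (−0.48 ± 0.13), Cpsf1 (−0.32 ± 0.10) and Wdr33 (−0.30 ± 0.09). The depleted share of 22.7% compares with 12.8% of all genes and with 1744 of 9569 genes of at least 10 CPM. CPSF6 and CPSF7 are the larger subunits that pair with NUDT21 in CFIm. Cpsf7 measured 24.0 and 21.8 CPM in the P-body pair against 29.5 and 34.2 CPM in the cytoplasm pair. Cpsf6 was not called between the fractions, with 265 and 279 CPM against 279 and 296 CPM. In the cytoplasm of KD cells Cpsf6 was higher than in control cells, by 1.24 ± 0.10 on the log2 scale (edgeR adjusted p = 1.63e-05).

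The 4 literature targets of CFIm-dependent 3′ UTR shortening whose motifs are printed above did not move together. Dicer1 was depleted with even replicates, at 58.9 and 63.4 CPM against 94.8 and 92.4 CPM (log2 −0.61 ± 0.10). Vma21, an assembly factor of the vacuolar ATPase, was enriched, at 185 and 162 CPM against 125 and 134 CPM (log2 0.42 ± 0.10). Ccnd1, a cyclin, and Timp2, an inhibitor of matrix proteases, did not pass, with log2 fold changes of 0.14 and −0.06.

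Among let-7 target genes, which include those with the seed matches printed above, 11 of 29 were depleted and 4 enriched (median log2 −0.26), with 6 or 4 depleted and 1 enriched without cytoplasm replicate 1 or 2. Shares of 37.9% depleted and 13.8% enriched compare with 12.8% and 9.04% of all genes. Trim71, a stem cell ubiquitin ligase and RNA-binding protein, measured 11.1 and 13.7 CPM in the P-body pair against 26.9 and 24.5 CPM in the cytoplasm pair (log2 −1.05 ± 0.15). Igf1r, the receptor of insulin-like growth factor 1, stood at 53.2 and 57.2 CPM against 91.6 and 94.6 CPM (log2 −0.75 ± 0.10). On the enriched side, Zfp322a stood at 129 and 113 CPM against 77.4 and 73.3 CPM (log2 0.68 ± 0.10), and Fas, a death receptor, at 91.4 and 82.9 CPM against 63.8 and 60.7 CPM (log2 0.48 ± 0.10). The seed match CTACCTC was present in genes of both directions, and its letters did not occur in the 3′ UTR of the longest coding transcript of Dicer1 or Myc, which were depleted. Reads of Myc can also come from the cassette, whose 3′ end was not examined.

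Across genes with at least 10 CPM, a 3′ UTR with this 7-mer was found in 12.4% of 1716 depleted genes, 10.4% of 6209 genes not called and 7.52% of 1316 enriched genes, with 10.4% over all 9241. The 3′ UTRs of these groups also differed in length, with medians of 1615, 1184 and 729 bases. Matches to the seeds of miR-300-3p (CTTGCAT) and miR-381-3p (CTTGTAT) had the same order, at 12.4%, 10.1% and 9.27% and at 16.4%, 13.7% and 10.6%. Per kilobase of 3′ UTR, the correlations of the log2 fold change with these sites were weak, between −0.06 and −0.04, and with TGTA 0.08. Only the transcript strand was searched.

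The length of the coding sequence had the strongest relation with P-body enrichment among the features compared. Over 9284 genes (97.0% of those with at least 10 CPM), the Spearman correlation of the log2 fold change was −0.60 with coding length, −0.36 with coding GC content, −0.28 with 3′ UTR GC content, −0.24 with 3′ UTR length and −0.22 with 5′ UTR length. These are descriptions across genes that share 4 libraries. The median coding length was 732 bases in enriched genes, 1344 in genes not called and 2871 in depleted genes. The median coding GC content was 48.8%, 52.3% and 54.9%.

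Length and GC content were then combined, with genes divided into 4 bins of near-equal size by coding length (ending at 858, 1395, 2241 and 26400 bases) and 4 by coding GC content. In the shortest bin with the lowest GC content, 46.4% of 496 genes were enriched and 1.21% depleted, with a median log2 fold change of 0.37. In the longest bin with the highest GC content, 0.408% of 490 genes were enriched and 69.6% depleted, with a median of −0.56. Within each bin of coding length the correlation with coding GC content was −0.35 to −0.59, and that with 3′ UTR length was −0.31 in the shortest bin and −0.08 in the longest. Median coding lengths of members with at least 10 CPM were 3486 (histone methylation), 4803 (remodelling), 3738 (laminin) and 4752 (collagen) bases. All lie in the longest bin, where depleted shares rose from 17.6% to 69.6% with GC content. The respiratory chain, cytosolic ribosomal, mitochondrial ribosomal and proteasome lists had 400.5, 444, 579 and 832.5 bases, in the shortest bin. Whether the list counts exceed those of genes of like length and GC content was not tested.

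**Figure D4:**
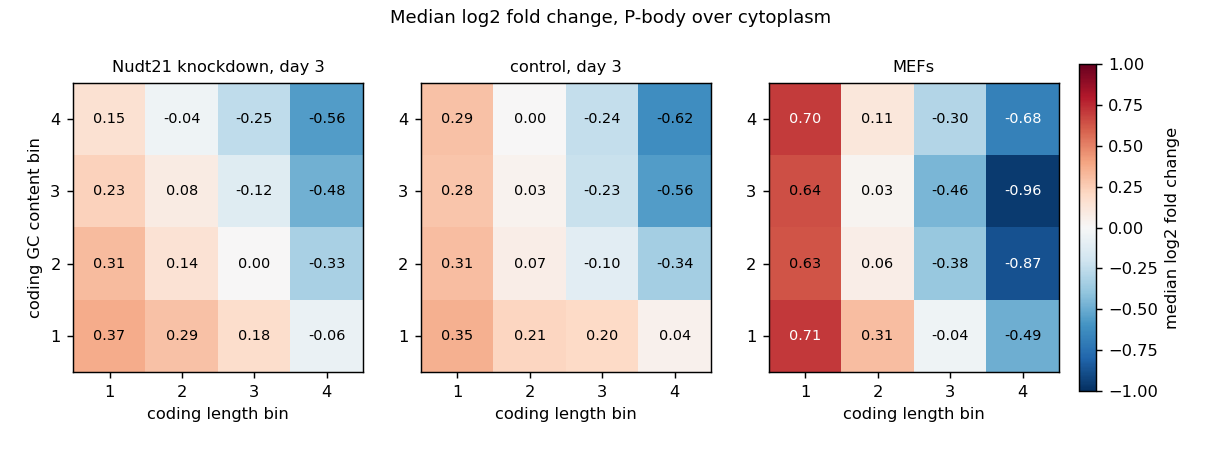
Median log2 fold change of P-bodies over cytoplasm by bin of coding length (horizontal, 1 is shortest) and of coding GC content (vertical, 1 is lowest), in Nudt21 KD cells, day 3 control cells and MEFs. In the KD the medians run from 0.37 at the lower left to −0.56 at the upper right, and in MEFs they change mainly along the length axis.

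The same 9284 genes gave, in day 3 control cells, correlations of −0.51 with coding length, −0.29 with coding GC content and −0.24 with 3′ UTR length. In MEFs the values were −0.59, −0.05 and −0.32. The spread of the log2 fold changes was smallest in the KD, with an SD of 0.40 over 9523 genes, against 0.46 in the control and 0.87 in MEFs. Of 3117 genes called in the KD, 97.3% had the same sign in the control and 88.6% in MEFs. The Pearson correlation of KD and control enrichment was 0.80 over 9569 genes, and that of KD and MEF enrichment 0.55 over 9523 genes.

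Whether P-body enrichment differed between KD and control cells was tested directly over their 8 libraries. Only 2 of 16973 genes (0.0118%) passed, Kcnq1ot1 and Xist, and 819 had an unadjusted p under 0.05. DESeq2 called 26. The number called varied widely when single libraries were left out, which also changes the pairs from which the spread is measured. The gene groups described above are not shown to differ between KD and control cells.

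Kcnq1ot1 (chr7:143203458-143296549), the noncoding RNA that silences an imprinted domain in the nucleus, measured 13.2 and 12.03 CPM in KD P-bodies against 49.5 and 50.5 CPM in KD cytoplasm. In control cells it measured 27.1 and 25.7 CPM in the P-body pair against 20.4 and 18.7 CPM in the cytoplasm pair. Kcnq1ot1 was thus lower in P-bodies in the KD. In the control its log2 fold change of 0.45 ± 0.16 was not called (edgeR adjusted p = 0.155). The control fit called only 102 genes, against 3501 in the KD, so a missing call there does not show absence of enrichment. In MEFs Kcnq1ot1 was P-body-enriched, at 2.38 ± 0.15 (edgeR adjusted p = 4.76e-06). The difference in log2 fold change between KD and control was −2.42 ± 0.19 (edgeR adjusted p = 0.00256). Xist (chrX:103460366-103483254), which coats the inactive X chromosome, measured 16.4 and 13.5 CPM in KD P-bodies, 50.1 and 48.5 CPM in KD cytoplasm, 30.2 and 33.7 CPM in control P-bodies and 26.5 and 21.7 CPM in control cytoplasm. Its difference was −2.12 ± 0.22 (edgeR adjusted p = 0.0170). Xist overlaps its antisense gene Tsix, and the use of strand in the counting is not given in the sources used here, so that their reads cannot be told apart.

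Of 10 tested members of a list of nuclear-retained long noncoding RNAs, which did not include Xist, 5 were depleted from KD P-bodies and 0 enriched: Kcnq1ot1, Neat1, Malat1, Meg3 and Miat. Miat had 2 and 0 reads in P-bodies against 13 and 12 in cytoplasm and so passed the read minimum through the cytoplasm alone. The depleted share of the list was 50%, against 12.8% of all genes. Its median log2 fold change was −0.50 in the KD, 0.05 in the control and 1.02 in MEFs. Neat1, the scaffold of nuclear paraspeckles, stood at 19.9 and 20.4 CPM in KD P-bodies and 76.9 and 68.5 CPM in KD cytoplasm, against 29.4 and 29.0 and then 50.7 and 51.6 CPM in the control. The difference of −1.04 ± 0.17 did not pass (edgeR adjusted p = 0.530). Malat1, of nuclear speckles, stood at 629 and 630 CPM against 953 and 959 CPM in the KD, and its difference from the control of −0.88 ± 0.15 did not pass either (edgeR adjusted p = 0.562). Tug1 and Snhg14 were not called between KD fractions, with log2 fold changes of 0.03 and 0.20. In the cytoplasm libraries, KD against control, Kcnq1ot1 was higher by 1.36 ± 0.14, Xist by 1.03 ± 0.16 and Neat1 by 0.51 ± 0.12 on the log2 scale, while Malat1 differed by −0.50 ± 0.11. All 4 are RNAs of the nucleus, and the part of residual nuclear RNA in the preparations was not tested.

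**Figure D5:**
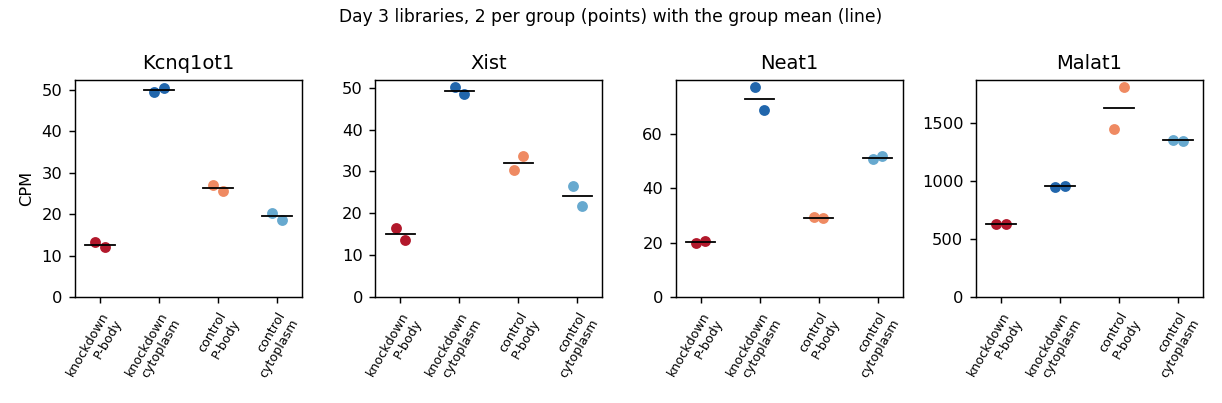
CPM (vertical axes from 0) of Kcnq1ot1, Xist, Neat1 and Malat1 in the 8 day 3 libraries, with 1 point per library and a line at the mean of 2 libraries. Kcnq1ot1 and Xist are lowest in KD P-bodies and highest in KD cytoplasm, and only these genes and Malat1 have control P-body values above the control cytoplasm.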

How the data were processed

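Per the labels and the study's methods, RNA of sorted P-bodies and cytoplasm was sequenced with SMART-Seq libraries, aligned with HISAT2 to mm10 and counted with featureCounts over refGene exons. The deposited table holds estimated counts per gene that the authors did not scale. Between 20.6% and 22.9% of the deposited estimated counts in the KD libraries held fractions of a read, and how shared reads were divided is not given in the sources used here. The other deposited files were not used. Samples were grouped by their titles.

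Counts were rounded. Genes with at least 10 reads over the libraries of a fit were tested with edgeR 4.0.16 (quasi-likelihood, TMM, two-sided, Benjamini-Hochberg, threshold 0.05) in R 4.3.3, with 2 libraries a group. DESeq2 1.42.0, the tool of the study, served as an alternative. The script was tested on simulated data. CPM uses TMM-scaled totals, and SE is the log2 fold change divided by the square root of F. Transcript features came from the longest coding transcript of GENCODE M21, and genes were matched by symbol. The replicates of a fraction differed beyond sampling noise (chi-square per degree of freedom 18.9 and 7.70), so none was merged.

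Genes were named if they were 1 of 18 fixed genes, among the 12 largest called changes in each direction (mean of at least 10 CPM, groups not overlapping), among the 4 largest called members of a list, or among the largest called differences from the control. Other called members, such as Wdr33, Dcp2 and Lsm1, were chosen after their values were seen. The members, lists and tests were chosen with earlier results of these data known. Alternatives were DESeq2, its size factors, edgeR's filterByExpr, no filter, a replicate block, 20 libraries in 1 fit, each library left out, median transcripts and all genes tested. Results for a few genes of the lists are not reported here.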

Additional observations from a re-analysis of the deposited data

Results flagged for a closer look

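Of the genes examined for a difference in P-body enrichment between KD and day 3 control cells, Kcnq1ot1 and Xist stood out because the test of the difference itself passed. The difference in log2 fold change was −2.42 for Kcnq1ot1 and −2.12 for Xist, lower in the KD in both. Both kept their direction in all alternatives run. The Kcnq1ot1 call was lost without KD P-body replicate 2 and without each of the 4 cytoplasm libraries, with differences of −2.49 to −2.36 there. The Xist call was lost under the replicate block and without each of the 4 KD libraries and the 2 control cytoplasm libraries, with differences of −2.28 to −1.99.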

How the results depend on the processing

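The 3501 calls in the KD were 2100 (891 enriched, 1209 depleted) when all 20 libraries shared 1 fit, and leaving out each library gave 1017 to 5729 calls, 183 to 2691 of them enriched and 757 to 3038 depleted. A fraction left with 1 library is assumed to vary like the other. DESeq2 gave 3499 calls, no filter 4361 and filterByExpr 3616, of which 3276, 3500 and 3491 were shared with the 3501, and 0 changed sign under any alternative. The difference from the control, with 2 calls, gave 26 with DESeq2, 62 with no filter and 0 to 2185 when each library was left out. Of 163 named genes tested between fractions, 49 and 51 calls were lost without cytoplasm replicate 1 and 2, against 0 to 26 under the others. Ddx6 changed sign (to 0.062) without P-body replicate 2, and Timp2 was 0.030 without P-body replicate 1 and −0.14 without replicate 2, none of them called.

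The labels give both fractions the replicate numbers 1 and 2 but do not say that a number marks a shared culture. Deviations of samples with the same number had a correlation of 0.20. With the replicate number as a block, 4103 genes were called in the KD (1786 enriched, 2317 depleted) and 1 gene in the difference from the control.

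The correlation with coding length, −0.60, was −0.51 with median transcripts, −0.45 over all genes tested and −0.61 to −0.55 when each library was left out. That with 3′ UTR length, −0.24, was −0.19 over all genes tested and −0.28 to −0.19 without a library, and that with 5′ UTR length, −0.22, was −0.17 over all genes tested and −0.22 to −0.20 without a library. When each library was left out, coding GC content gave −0.44 to −0.22, 3′ UTR GC content −0.35 to −0.17 and TGTA per kilobase 0.017 to 0.13, with P-body replicate 1 left out at the weaker end of all 3. The cause of these shifts was not tested. Genes under 10 CPM were outside the feature comparisons.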

Other observations

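Genes of insulin-like growth factor signalling and imprinting were on the depleted side in Nudt21 KD cells, with 9 of 18 tested members depleted and 0 enriched (median log2 −0.39), or 6 or 4 depleted without cytoplasm replicate 1 or 2. Irs2, an adaptor of the insulin and IGF1 receptors, measured 22.6 and 37.5 CPM in P-bodies and 81.04 and 96.5 CPM in cytoplasm (log2 −1.56 ± 0.19). Igf2r, which clears IGF2, and Igfbp3, a binding protein of IGFs, had log2 fold changes of −0.79 ± 0.10 and −0.81 ± 0.15. The depleted shares of this list and of immediate early and AP-1 factors were 50% and 26.1%, against 12.8% of all genes. Immediate early and AP-1 factors had 6 of 23 depleted and 0 enriched (4 or 2 depleted without cytoplasm replicate 1 or 2, and 15 without P-body replicate 2), among them Egr1 (log2 −0.79 ± 0.11) and Zfp36l2, a protein that binds AU-rich elements (−0.84 ± 0.14).

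Of 36 SR proteins and hnRNPs, 9 were depleted (25%, against 12.8% of all genes), led by Hnrnpd (log2 −1.31 ± 0.18), and 3 were enriched (8.33%, against 9.04%), namely Srsf3, Srsf7 and Srsf10. Without cytoplasm replicate 1 or 2 the counts were 5 or 3 depleted and 0 enriched. Molecular chaperones had 12 of 78 enriched (15.4%) and 4 depleted (5.13%), with 2 and 0 without either cytoplasm library. Among all genes with at least 10 CPM, 1389 of 9569 were enriched, a share close to that of the chaperones. The enriched members included Hspa8. Of 63 replication-dependent histone genes, 1 was enriched (1.59%, against 9.04% of all genes) and 0 depleted. The low share is not a shift away from P-bodies, since 42 of the 63 had a log2 fold change above 0. Their median was 0.19 in the KD, 0.83 in the control and 1.51 in MEFs.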
